A study of Mus musculus with 6 samples.

Results

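The mRNA levels of 8 genes of cholesterol synthesis and of its transcriptional control were compared in endothelial cells (ECs) of young and aged mouse liver. They were chosen by name: Hmgcs1, Idi1, Fdft1, Sqle, Lss and Dhcr7, which encode enzymes of the route, and Insig1 and Srebf2, which encode regulators of it. The choice was made with earlier results of these data known. All 8 are among the 24421 gene symbols of the count table, and all 8 passed the filter on low values that left 14612 genes to test. In counts scaled to library size, the enzymes Hmgcs1, Fdft1, Sqle and Lss were higher in every aged sample than in every young sample. The differences were 1.30- to 2.36-fold, and 9.62% of all genes tested showed such a separation. In the length-scaled values of the same samples, the groups overlapped for Fdft1. Idi1, Insig1 and Srebf2 had higher means in aged ECs with overlapping groups, and Dhcr7 had a slightly lower one. None of the 8 passed the edgeR test once p was adjusted over all genes, and 0% of all genes did.

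Cholesterol is built from acetyl-CoA. Acetyl-CoA is condensed to HMG-CoA, which is reduced to mevalonate, and mevalonate gives the isoprenoid units that are joined into squalene. Squalene is then oxidised and folded into lanosterol, and a series of late steps turns lanosterol into cholesterol. The transcription factor SREBP2, product of Srebf2, switches on the genes of the whole route. When sterols are plentiful, INSIG proteins hold SREBP2 and its escort SCAP in the endoplasmic reticulum. When sterols fall, the complex moves to the Golgi, where site-1 and site-2 proteases release the active factor. Liver ECs also take up lipoproteins from blood and line sinusoids beside hepatocytes, which are the main cholesterol-producing cells of the organ.

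The study sorted CD31+CD45- cells from the liver of wild-type (WT) C57BL/6J mice by flow cytometry and sequenced their RNA. The young group held 3 samples of mice aged 10 weeks. The aged group held 1 sample each at 127, 131 and 136 weeks, so age also varied within it. No other allele, agent or treatment is named for either group, and the p-values below measure the spread between these samples. Total counts ran from 23001556 to 31651817 per sample, so that 3 counts corresponded to 0.0948 to 0.130 CPM (read counts scaled to an equal library size). Reads of Lars2 and Rn45s made up 0.960% to 5.53% of counts and split the libraries across age, with young replicate 3 and the 127-week sample low and the other 4 high. The endothelial marker Pecam1 was at 1366 to 1635 CPM in all 6 samples, but Stab2, Clec4g and Oit3, markers of sinusoidal ECs, were lower in every aged sample. Lyve1, another endothelial marker, went the other way, with a log2 fold change of 0.58 and overlapping groups. It was at 391, 537 and 670 CPM in young and 660, 223 and 1506 CPM at 127, 131 and 136 weeks. In sorted bulk RNA, fewer cells of a type and less RNA per cell cannot be told apart.

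Levels were first ordered by FPKM (fragments per kilobase of transcript, scaled to library size), which can be set side by side between genes of different length. In young ECs Insig1 was highest at 19.9 ± 2.89 FPKM (mean ± SD, n = 3), followed by Fdft1 at 17.1 ± 1.30 and Srebf2 at 15.5 ± 2.50. Hmgcs1 at 10.1 ± 0.890, Dhcr7 at 7.44 ± 2.25 and Idi1 at 5.64 ± 1.28 FPKM formed a middle level. Sqle was at 1.33 ± 0.639 FPKM and Lss was lowest at 0.375 ± 0.0936 FPKM. The ranges of Insig1, Fdft1 and Srebf2 overlapped between neighbours in this order, as did those of Hmgcs1, Dhcr7 and Idi1, whereas Srebf2 and Hmgcs1, Idi1 and Sqle, and Sqle and Lss were apart. In aged ECs the order was the same except that Idi1, at 7.68 ± 1.22 FPKM, stood before Dhcr7, at 6.85 ± 1.72, with overlapping ranges. The place of Fdft1 is uncertain in both groups. Its longest mm9 transcript has 2860 bases and that of Idi1 has 2866, and their young means were 16.0 and 15.5 CPM. Yet their young FPKM were 17.1 and 5.64, so the 2 scales place Fdft1 differently.

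Promoter sequences are shown for 3 of the genes, since the route's genes are known to be driven together from short elements near their start sites. Each run below holds the 250 bases before the RefSeq start on the GRCm38.p6 build, 5′ to 3′ on the strand of the gene. Capitals mark exact matches on either strand to TCACNCCAC, a form of the SREBP site, to CACGTG, the E-box, and to CCAAT, the element bound by NF-Y, which reads ATTGG on the other strand. Hmgcs1 is shown because it holds the SREBP letters, Insig1 because it holds the E-box, and Lss because it was the low gene with neither.
Hmgcs1, chr13:119690101-119690350, plus strand: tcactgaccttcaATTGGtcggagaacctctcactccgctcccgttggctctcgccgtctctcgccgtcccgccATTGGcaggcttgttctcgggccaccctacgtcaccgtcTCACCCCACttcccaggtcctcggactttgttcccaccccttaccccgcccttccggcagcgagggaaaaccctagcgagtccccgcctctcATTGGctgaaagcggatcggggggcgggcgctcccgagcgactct
Insig1, chr5:28071162-28071411, plus strand: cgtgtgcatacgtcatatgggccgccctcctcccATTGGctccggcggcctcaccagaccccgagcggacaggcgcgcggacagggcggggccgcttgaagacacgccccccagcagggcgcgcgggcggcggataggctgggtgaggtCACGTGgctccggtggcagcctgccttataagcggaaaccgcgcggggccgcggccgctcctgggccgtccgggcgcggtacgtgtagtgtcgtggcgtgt
Lss, chr10:76531355-76531604, plus strand: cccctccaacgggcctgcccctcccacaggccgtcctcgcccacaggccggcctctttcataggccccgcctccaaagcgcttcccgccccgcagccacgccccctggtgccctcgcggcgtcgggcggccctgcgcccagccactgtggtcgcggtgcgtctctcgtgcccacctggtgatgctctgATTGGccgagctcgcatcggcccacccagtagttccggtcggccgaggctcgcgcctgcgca

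The promoter table had entries for 6 of the 8 genes, in 8 windows. TCACNCCAC matched in the window of Hmgcs1 alone, as TCACCCCAC starting 137 bases before the start, with matches in 1.05% of all 32851 promoter windows. The same letters were in 0 of 13 windows of the other route enzymes, and the SREBP site tolerates more variation than these letters allow. CACGTG matched in the window of Insig1 and in 1 of the windows of Dhcr7, against 6.02% of all windows. CCAAT was found for 6 of 6 genes, against 37.5% of all genes, and GGGCGG, the element bound by SP1 (not in capitals), also for 6 of 6, against 35.4%. The GGGCGG matches may lie anywhere in the window on either strand, and a match describes the letters only.

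Hmgcs1 encodes cytosolic HMG-CoA synthase, which makes HMG-CoA at the start of the route. Its levels were 38.5, 34.6 and 31.6 CPM in young replicates 1, 2 and 3, and 48.0, 40.5 and 47.9 CPM in the 127-, 131- and 136-week samples. Every aged sample was above every young one, with the 131-week sample closest to young replicate 1. The mean went from 34.9 ± 3.44 to 45.5 ± 4.30 CPM (SD, n = 3 each). The log2 fold change of aged over young was 0.38 (SE 0.15, 95% interval 0.03 to 0.73), with an adjusted p of 0.366 in edgeR's quasi-likelihood test with Benjamini-Hochberg adjustment over all 14612 genes.

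Idi1, on chromosome 13 (mm9, chr13:8884852-8891641, plus strand), encodes isopentenyl-diphosphate isomerase, which interconverts the activated isoprene units. It stood at 19.5, 14.4 and 12.5 CPM in young replicates 1, 2 and 3 and at 19.9, 18.6 and 25.1 CPM in the samples of 127, 131 and 136 weeks. The groups overlapped, since young replicate 1 was above the 131-week sample. Aged over young, its log2 fold change was 0.45 (SE 0.23, 95% interval -0.08 to 0.98, edgeR adjusted p = 0.473).

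Fdft1 encodes squalene synthase, the first enzyme committed to sterols, and lies on the minus strand at chr14:63763990-63796630 (mm9). Its levels were 16.9, 14.9 and 16.2 CPM in the young samples and 23.2, 20.3 and 28.4 CPM at 127, 131 and 136 weeks. All aged samples were above all young ones in CPM, and the young samples lay close together. The log2 fold change was 0.58 (SE 0.18, 95% interval 0.15 to 1.02, edgeR adjusted p = 0.303).

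The FPKM table did not show the same separation for Fdft1. Its FPKM was 16.6, 18.5 and 16.0 in the young samples and 16.2, 21.2 and 18.9 at 127, 131 and 136 weeks. The groups overlapped on this scale, with means of 17.1 ± 1.30 and 18.8 ± 2.49 FPKM (SD, n = 3 each) and a log2 ratio of means of 0.14. CPM per FPKM, which should be nearly constant for a gene counted alike in both tables, differed 2.05-fold between the highest and the lowest sample for Fdft1, at the 99.4th percentile of 10228 genes, whose median was 1.15-fold. It was highest in the 127-week (1.59) and 136-week (1.48) samples and lowest in young replicate 2 (0.778). For this ratio CPM used total counts without the TMM factor, which was 1.11 at 127 weeks and 0.964 to 1.00 in the other samples. The order of the 127- and 136-week samples depends on that scaling. For Idi1 the ratio was also highest at 127 weeks, at 3.04 against 2.67 to 2.72 in the other samples. Exon sequence of Fdft1 overlaps that of Ctsb, which encodes the lysosomal protease cathepsin B, on the opposite strand over 769 bases. Ctsb was far above Fdft1, at 2064, 2403 and 2268 CPM in young and 1743, 2134 and 2130 CPM at 127, 131 and 136 weeks. Its log2 fold change was -0.17 (edgeR adjusted p = 0.774). The library kit does not mark strand, so reads from the overlap cannot be assigned to either gene. The part of this overlap in the Fdft1 values was not tested.

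**Figure D1:**
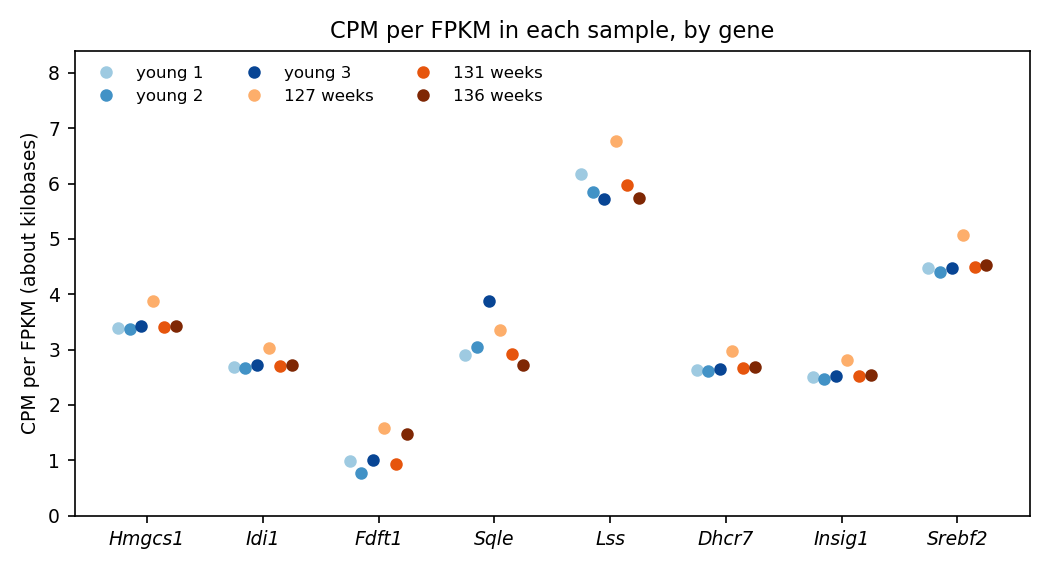
CPM divided by FPKM (vertical axis, about the effective length in kilobases) for each of the 8 genes, with 1 point per sample in the colours of the legend. CPM here uses total counts without TMM scaling. The 6 points of a gene lie close together for most genes, whereas those of Fdft1 run from 0.778 to 1.59 and those of Sqle from 2.73 to 3.87.

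Sqle, at chr15:59146632-59162747 (mm9, plus strand), encodes squalene epoxidase, a rate-limiting oxygenase of the sterol steps. Its levels were 6.03, 3.79 and 2.93 CPM in young replicates 1, 2 and 3 and 9.21, 6.61 and 14.3 CPM at 127, 131 and 136 weeks. Every aged sample was above every young one, but the gap between young replicate 1 and the 131-week sample was small. The means were 4.25 ± 1.60 CPM in young and 10.0 ± 3.91 CPM in aged ECs (SD, n = 3 each). On the log2 scale the difference was 1.24 (SE 0.39, 95% interval 0.33 to 2.15). This was the largest fold change of the 8, with an edgeR adjusted p of 0.301. In FPKM, which comes from the same reads, the groups did not overlap either, with 0.759 to 2.02 in young and 2.21 to 5.14 in aged ECs. CPM per FPKM differed 1.42-fold between samples for Sqle, at the 98.2th percentile of the 10228 genes. It was highest in young replicate 3 (3.87) and lowest at 136 weeks (2.73), so the 2 scales differ for Sqle too.

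Lss, at chr10:75994333-76019883 (mm9, plus strand), encodes lanosterol synthase, which folds oxidised squalene into the first sterol. It was the lowest of the 8, with 56, 65 and 57 counts in the young samples and 155, 117 and 112 counts at 127, 131 and 136 weeks. These corresponded to 2.08, 2.93 and 1.798 CPM and to 5.33, 4.55 and 4.55 CPM. The groups were apart by more than the spread within either, with means of 2.27 ± 0.590 and 4.81 ± 0.451 CPM (SD, n = 3 each). In edgeR its log2 fold change was 1.08 (SE 0.32, 95% interval 0.33 to 1.84, edgeR adjusted p = 0.278). With DESeq2 the adjusted p was 0.0426, the only one of the 8 below 0.05, and over the alternatives its adjusted p ran from 0.0426 to 1. A long noncoding RNA gene, 4930483K19Rik, shares 381 exonic bases with Lss on the opposite strand and was not among the genes tested.

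Dhcr7, at chr7:151009050-151034315 (mm9, plus strand), encodes 7-dehydrocholesterol reductase, which makes cholesterol in the last step of 1 branch of the route. It was at 27.1, 17.8 and 15.2 CPM in young replicates 1, 2 and 3 and at 13.7, 23.3 and 18.8 CPM at 127, 131 and 136 weeks. The groups overlapped fully, with the 127-week sample lowest and young replicate 1 highest. Its log2 fold change was -0.11 (SE 0.29, 95% interval -0.78 to 0.57, edgeR adjusted p = 0.931). It was 0.17 without young replicate 1 and 0.08 without the 127-week sample.

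Insig1, at chr5:28397952-28405201 (mm9, plus strand), encodes the anchor that retains SCAP and SREBP in the endoplasmic reticulum and is itself an SREBP target. Its levels were 59.9, 45.4 and 47.7 CPM in the young samples and 56.0, 105 and 55.1 CPM at 127, 131 and 136 weeks. Only the 131-week sample was above all young ones, and the other aged samples lay within the young range. The log2 fold change of 0.50 (SE 0.28, 95% interval -0.15 to 1.15, edgeR adjusted p = 0.517) dropped to 0.12 without the 131-week sample.

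Srebf2, at chr15:81977696-82035806 (mm9, plus strand), encodes SREBP2 itself. It was at 84.5, 66.5 and 61.2 CPM in the young samples and at 78.4, 66.7 and 101 CPM at 127, 131 and 136 weeks. The groups overlapped, with the 136-week sample above all others. The log2 fold change was 0.21 (SE 0.20, 95% interval -0.26 to 0.69, edgeR adjusted p = 0.730), and it was 0.04 without the 136-week sample. The table holds mRNA levels, and processing of SREBP2 protein was not measured.

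**Figure D2:**
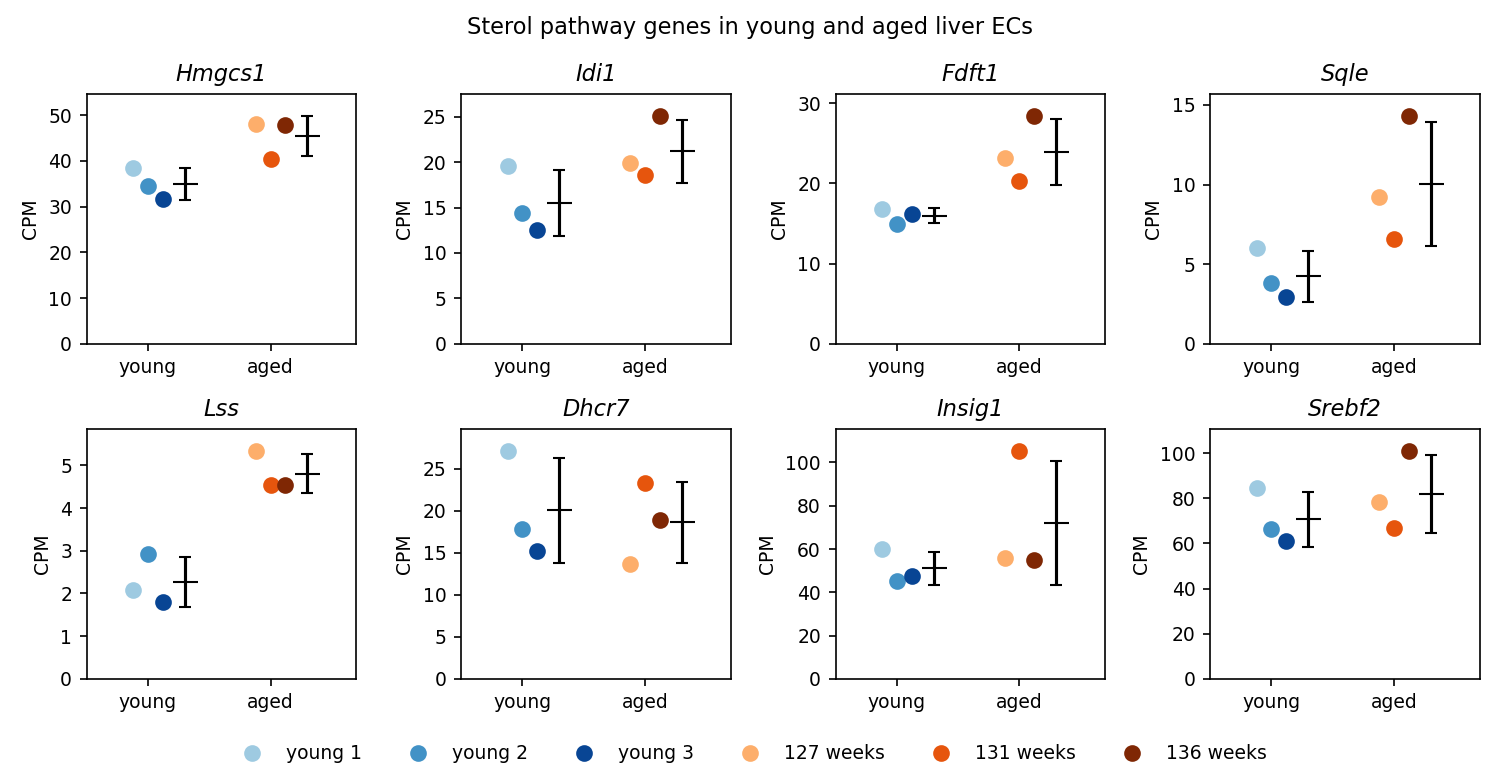
CPM (vertical axes, starting at 0, scaled by TMM) of the 8 genes, with 1 point per sample for young and aged liver ECs and the group mean ± SD beside the points (n = 3 each). For Hmgcs1, Fdft1, Sqle and Lss the 3 aged samples sit above the 3 young ones, whereas for Idi1, Dhcr7, Insig1 and Srebf2 the groups overlap.

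The log2 fold change was positive for 7 of the 8 genes, against 51.1% of all genes tested, with a median of 0.47 against 0.01. Since the 8 genes were chosen with earlier results of these data known, the shares given here are a description only. Every aged sample was above every young sample for 4 genes, where 9.62% of all genes were, and below for 0, where 8.33% were. In FPKM, Hmgcs1, Sqle and Lss were higher without overlap, against 9.07% of 16183 genes, and 0 were lower, against 8.14%. At an unadjusted p below 0.05, edgeR gave the same 4 genes as higher (8.32% of all genes) and none as lower (4.32% of all genes). At an adjusted p below 0.05, edgeR called 0 of the 8 and 0% of all genes, although 1216 genes were higher and 631 lower at the unadjusted threshold. DESeq2 called 3.46% of genes higher and 1.11% lower. An exact permutation test of each gene alone could not go below p = 0.1 with 3 against 3. Any gene whose groups do not overlap reaches this value, as Hmgcs1, Fdft1, Sqle and Lss did, so it adds nothing to the counts above.

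The counts of genes past the unadjusted threshold depended on single libraries. Without young replicate 2 edgeR left Sqle and Lss of the 4, and without the 136-week sample it left Fdft1 and Lss. Without young replicate 3 or the 127-week sample, Hmgcs1 alone was lost, and without young replicate 1 Idi1 was added. Lss stayed below 0.05 in each of the 6 fits that left out 1 sample. Within the libraries rich in Lars2 and Rn45s reads, and within the others, the differences of group means of log2(CPM + 1) were positive for the same 7 genes: for Sqle they were 0.89 and 1.38, for Lss 0.67 and 1.18, for Fdft1 0.57 and 0.49, and for Hmgcs1 0.26 and 0.59. The second pair of libraries holds 1 sample of each age.

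The aged samples did not rank alike. The 136-week sample was highest in 4 of the 8 genes, the 127-week sample in 2, and the 131-week sample and young replicate 1 in 1 each. Young replicate 3 was lowest in 5. Over the 6 samples the 10 pairs among Hmgcs1, Sqle, Idi1, Fdft1 and Lss had Pearson correlations of log2(CPM + 1) from 0.66 to 0.97. The 7 pairs with Dhcr7 ran from -0.21 to 0.53, and the 6 other pairs with Insig1 from -0.05 to 0.43. Srebf2 was at 0.91 with Idi1, 0.87 with Sqle, 0.77 with Hmgcs1, 0.73 with Fdft1 and 0.38 with Lss. These values are a description over 6 samples that share the age difference and the library differences. The genes closest to the mean profile of the 8, among 8907 with a mean of at least 10 CPM, were Spata5 (r = 0.988), Endod1 (0.986), Bmx (0.986), Epha4 (0.983) and C1s1 (0.981).

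Markers of other cells also differed between the samples. The summed level of 5 pan-leukocyte markers was 13.3 to 21.7 CPM in the young samples, 15.7 CPM at 131 weeks, 43.7 CPM at 127 weeks and 174 CPM at 136 weeks, and 5 of 5 were higher in aged ECs at an unadjusted p below 0.05. Macrophage and myeloid markers summed to 38.2 to 81.7 CPM in young, 29.9 CPM at 131 weeks, 189 CPM at 127 weeks and 470 CPM at 136 weeks, and T, NK and B cell markers to at most 1.53 CPM in young and 25.1 CPM at 136 weeks, with 4 of these 8 lymphoid markers at 0 counts in young replicate 3 and at 131 weeks. Sqle, Idi1, Fdft1 and Srebf2 had the same order of aged samples, from 136 to 127 to 131 weeks. At 131 weeks the pan-leukocyte sum was within the young range and the myeloid sum below it, while Coro1a and Cd3e, at 5.72 and 0.117 CPM, were just above the young maxima of 5.54 and 0.0744 CPM. In that sample Hmgcs1, Sqle, Fdft1 and Lss were above every young sample. Adding the log2 level of the pan-leukocyte markers to the edgeR fit left log2 fold changes of 0.27 for Hmgcs1, 0.66 for Sqle, 0.35 for Fdft1 and 1.13 for Lss, with Lss and Insig1 below an unadjusted p of 0.05. The summed level of 8 endothelial markers was 15854 to 17851 CPM in young and 7924 to 11802 CPM in aged samples, and 5 of the 8 were lower in every aged sample, as were 8.33% of all genes. A term for Stab2, Clec4g and Oit3, which leaves out Lyve1, was added to the edgeR fit. It left log2 fold changes of 0.063 for Hmgcs1, -0.023 for Sqle, 0.094 for Fdft1 and 0.98 for Lss. These 3 markers did not overlap between the ages, so that their level and age cannot be told apart in this fit. Hepatocyte markers summed to 92.1 to 155 CPM in young and 62.5 to 86.7 CPM in aged samples, with 8 of 8 fold changes negative. Cholangiocyte markers, which include Sox9, summed to 7.29 to 24.0 CPM in young and 20.2 to 30.8 CPM in aged samples, stellate and mural markers to 123 to 396 and 212 to 677 CPM, and proliferation markers to 176 to 232 and 160 to 226 CPM. The part of these cells in the values of the 8 genes was not tested beyond the fits given.

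Beyond these, 14 other enzymes of the mevalonate and sterol route were set beside the 6 enzymes above. Their log2 fold changes were positive for 10 and negative for 4, with a median of 0.17, and 0 passed the adjusted test. The median was -0.021 without young replicate 3, 0.033 without the 136-week sample and -0.0028 with limma-voom. Acat2, which makes acetoacetyl-CoA for the step before Hmgcs1, was higher without overlap, at 9.12 to 10.2 CPM in young and 10.9 to 14.7 CPM in aged samples (log2 fold change 0.37, adjusted p = 0.502). Mvk, which encodes mevalonate kinase, went the other way at 13.2, 10.8 and 9.90 CPM in young and 7.36, 8.24 and 7.96 CPM at 127, 131 and 136 weeks. All its aged samples were below all young ones (log2 fold change -0.53, adjusted p = 0.368). Cyp51, which removes a methyl group from lanosterol just after Lss, had a log2 fold change of 0.98 (SE 0.46, adjusted p = 0.442) with overlapping groups.

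**Figure D3:**
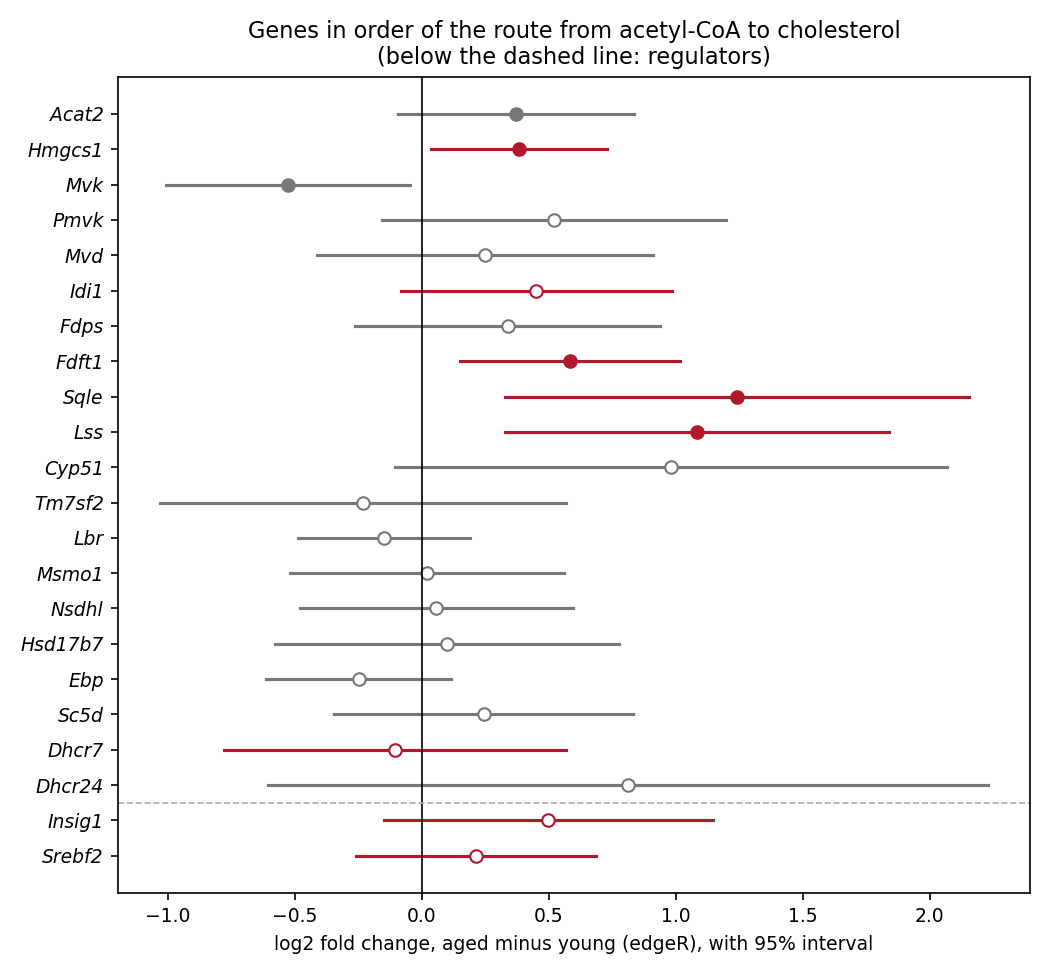
Log2 fold change of aged over young with its 95% interval (horizontal axis, edgeR) for 20 enzymes in route order and, under the dashed line, Insig1 and Srebf2. Red marks the 8 genes described here and filled points mark groups that do not overlap. Filled points to the right are found from Acat2 to Lss, and Mvk is the filled point to the left.

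The samples showed the same uneven picture along the route. Taken over the 20 enzymes, 15 fold changes were positive and 5 negative, with a median of 0.29. Without overlap, 5 enzymes were higher and 1 lower (9.62% and 8.33% of all genes). Of the 5 higher ones, 4 were among the 8 genes described above. The 14 other enzymes alone had 1 higher and 1 lower without overlap. The late enzymes Tm7sf2, Lbr, Ebp and Dhcr7 had negative values, while Msmo1, Nsdhl, Hsd17b7 and Sc5d had small positive ones. Young replicate 1 was above the young mean for 13 of the 14 other enzymes and young replicate 3 for 1, so the young samples also differed among themselves.

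**Figure D4:**
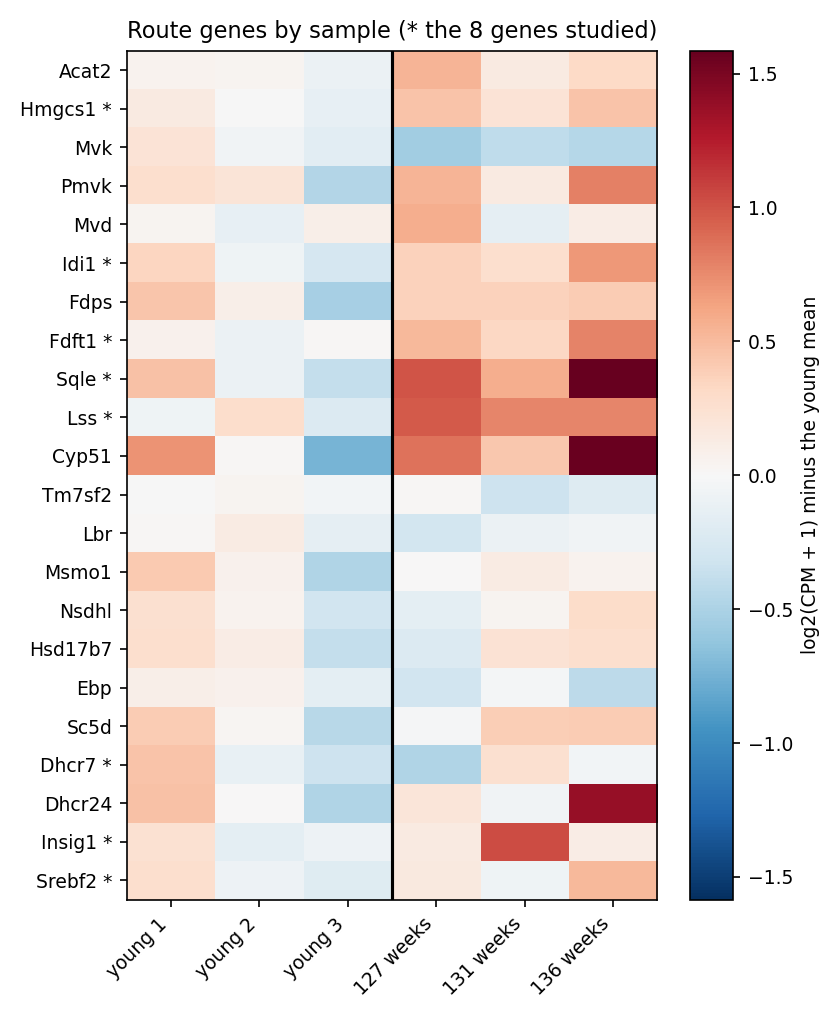
Log2(CPM + 1) of each sample minus the mean of the young samples (colour scale, red higher) for the 20 route enzymes and both regulators, with stars on the 8 genes. The largest departures are Sqle at 1.59 and Cyp51 at 1.56 in the 136-week sample, and Mvk is blue in all aged samples.

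Of 4 further SREBP2 targets, 2 had positive and 2 negative log2 fold changes with a median of -0.07. Stard4, a cytosolic sterol carrier, was at 52.0, 57.2 and 53.4 CPM in young and at 29.9, 50.8 and 35.0 CPM in aged samples, all lower (log2 fold change -0.49, adjusted p = 0.393). Tmem97, a sterol-regulated membrane protein, had a log2 fold change of -0.21 and overlapping groups, as had Aacs, acetoacetyl-CoA synthetase, at 0.07.

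The 8 genes of SREBP processing and sterol-regulated protein turnover had 2 positive and 6 negative log2 fold changes with a median of -0.09, and 0 passed the adjusted test. Scap, the escort of SREBP, was at 0.01 and Insig2, the other INSIG gene, at -0.06. Mbtps1, the site-1 protease, was lower without overlap at -0.25 (adjusted p = 0.541). Erlin2 at -0.27 and Erlin1 at 0.11, both of protein turnover at the endoplasmic reticulum, overlapped between the groups.

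Of 8 genes of LXR, oxysterol and efflux control, 4 log2 fold changes were positive and 4 negative, with a median of 0.03. Ch25h encodes cholesterol 25-hydroxylase, whose product 25-hydroxycholesterol is known to hold SREBP back. It was at 15.1, 17.7 and 14.3 CPM in young and at 42.8, 63.4 and 98.8 CPM at 127, 131 and 136 weeks. The groups were far apart, with a log2 fold change of 2.12 (SE 0.30) and an edgeR adjusted p of 0.177. DESeq2 gave an adjusted p of 1.67e-07, and over the alternatives it ran up to 0.907. Mylip, an LXR target that encodes a ubiquitin ligase, was at 294, 357 and 523 CPM in young and at 203, 268 and 188 CPM in aged samples, all lower, with a log2 fold change of -0.83 (edgeR adjusted p = 0.288, DESeq2 0.0483, up to 1 over the alternatives). Nr1h3, which encodes LXR alpha, had a log2 fold change of 0.86 with overlapping groups (adjusted p = 0.344).

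The remaining lipid lists showed no call in edgeR. Of 9 genes of SREBP1 and fatty acid synthesis 7 had positive log2 fold changes with a median of 0.22, and Scd2, a stearoyl-CoA desaturase, was higher without overlap at 0.59 (adjusted p = 0.368). Fasn, fatty acid synthase, was at 0.73 (adjusted p = 0.370) and Srebf1 at 0.26 (adjusted p = 0.620), both with overlapping groups. Of 9 genes of the isoprenoid branches, which use intermediates of the route for dolichol, ubiquinone and prenylation, 7 were negative with a median of -0.12. Dhdds, of dolichol synthesis, was lower without overlap at -0.18, and Pdss1 and Pggt1b were at -0.36 and -0.16. Of 5 genes of cholesterol trafficking 4 were negative with a median of -0.14, with Stard3 at -0.31, Scarb1, the HDL receptor, lower without overlap at -0.15, and Npc1 at -0.14.

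**Figure D5:**
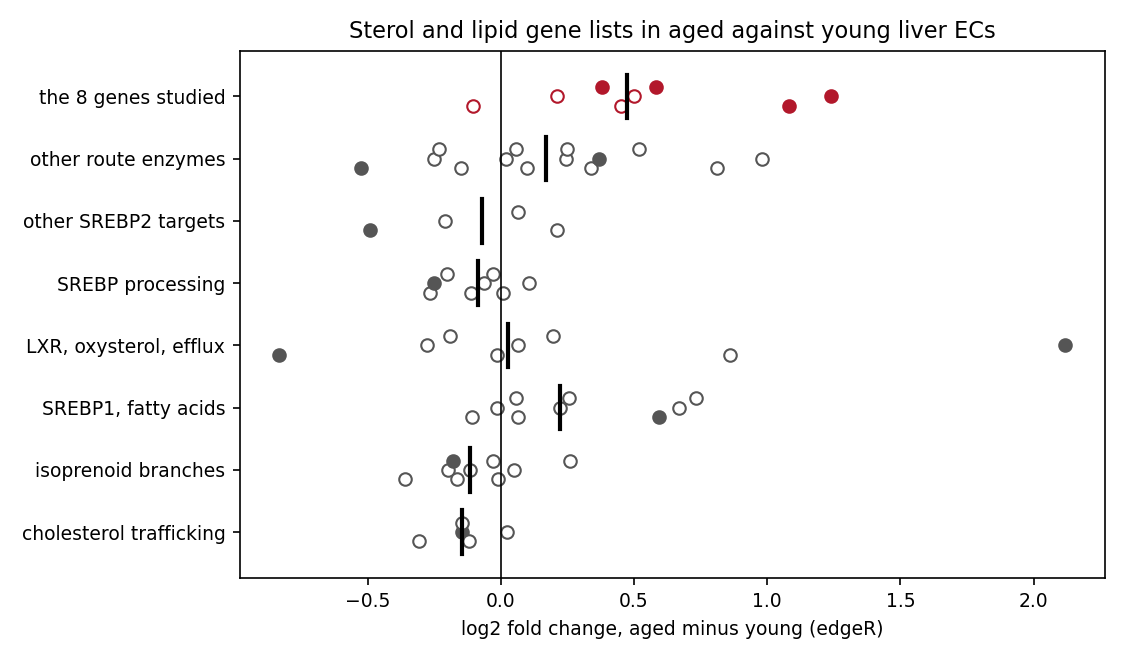
Log2 fold change of aged over young (horizontal axis, edgeR) with 1 point per gene for the 8 genes (red) and 7 related lists. Filled points mark groups that do not overlap and vertical bars mark the median, which is 0.47 for the 8 genes and lies between -0.14 and 0.22 for the others.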

How the data were processed

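RNA of sorted CD31+CD45- liver cells was sequenced by the study as 75-base single-end reads from a kit that does not mark strand. Per the labels, CASAVA 1.8.2, TopHat2 2.1.0 and Cuffnorm 2.2.1 were used with mm9. The authors deposited whole-number read counts per gene and FPKM values for the same 6 samples, and how the counts were made is not given in the sources used here. Genes with at least 0.5 CPM in at least 1 sample were tested on the deposited counts with edgeR 4.0.16 (TMM, quasi-likelihood) run under R 4.3.3. P-values were adjusted by Benjamini-Hochberg, with calls made below 0.05. DESeq2 1.42.0 and limma 3.58.1 were alternatives. The SE is the absolute log2 fold change over the square root of F. CPM uses TMM-scaled library sizes, and limits from counts cover counting error only.

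The 8 genes and all gene lists were chosen with earlier results of these data known. From each pathway list the text names the 3 genes with the smallest unadjusted p and those whose groups do not overlap, plus others chosen after their values were seen. Promoters came from RefSeq (GRCm38.p6) and were searched for exact matches on both strands. Gene positions are mm9, found for 7 of the 8 genes. Some genes of the pathway lists are not reported here and were left out of the lists. The edgeR step was tested on simulated data.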

Additional observations from a re-analysis of the deposited data

How the results depend on the processing

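Lss rested on 56 to 155 counts per sample, the fewest of the 8 genes in every aged sample and in every young one. No paired analysis was made, since the labels name no pairs between young and aged samples. The number of genes called was 0 in edgeR, 4 without a filter, 639 with DESeq2, 15 with limma-voom, 2 with limma on log2(FPKM + 0.1), 2 with the stricter FPKM filter, 2 with a term for the library cluster and 0 to 1 with 1 sample left out. Genes at an unadjusted p below 0.05 ran from 729 to 1549 (higher) and 346 to 887 (lower) with 1 sample left out, and 961 were lower with the library cluster term. DESeq2 called 1 of the 8 genes (Lss), and 2 to 5 of the 8 were below an unadjusted p of 0.05 with 1 sample left out. Dhcr7 ran from -0.30 to 0.17 with 1 sample left out and turned positive without young replicate 1 (0.17) and without the 127-week sample (0.08). Limma on log2(FPKM + 0.1) gave 0.13 for Fdft1. With 1 sample left out, the median of the other enzymes ran from -0.021 to 0.26, that of the further SREBP2 targets from -0.19 to -0.03 and that of the LXR list from -0.06 to 0.06. The older edgeR dispersion step is the default of this version and changed nothing.

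The newer edgeR step and 2 marker terms were chosen after seeing the data. The pan-leukocyte term gave 16 calls, 538 genes higher and 310 lower at an unadjusted p below 0.05, 2 of the 8 below it, and -0.083 for Srebf2. The term for Stab2, Clec4g and Oit3 gave 252 higher and 414 lower, 1 of the 8 (Insig1), medians of 0.078 for the 8 and -0.17 for the other enzymes, and log2 fold changes of 0.063 for Hmgcs1, -0.023 for Sqle, -0.032 for Idi1, 0.094 for Fdft1, 0.98 for Lss, 0.26 for Dhcr7, 1.45 for Insig1 and -0.43 for Srebf2. These markers did not overlap between the ages, so this term and age cannot be told apart. Where values changed, the cause was not tested.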
